A study of Mus musculus with 12 samples.

Results

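The acrosome is the secretory cap over the sperm nucleus, and 10 genes that encode its matrix and membrane proteins are described here. They are Acr, Acrv1, Acrbp, Spaca1, Zpbp, Zpbp2, Izumo1, Spesp1, Spink2 and Dkkl1. They were chosen by name, and every contig of the count table that carries one of these symbols was kept, where a contig is 1 reference transcript to which reads were assigned. This gave 20 contigs of the 10 genes, among 12114 contigs and 7009 symbols in the whole table. All 20 passed the filter on low counts and were tested among 11831 contigs. Of the 10 genes, 5 had 1 contig each, and Acrbp, Dkkl1, Spaca1, Spink2 and Zpbp2 had 2 to 4.

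Nanopore direct RNA sequencing, in which native poly(A) RNA molecules are read without copying, was run on spermatids from testes of adult mice. Round spermatids (RS) are the early haploid cells and elongated spermatids (ES) are the later ones. Both were sorted by flow cytometry from Tent5c wt/wt males and from Tent5c dcat/dcat males, whose TENT5C, a poly(A) polymerase that acts outside the nucleus, has lost its catalytic activity. The allele is carried in every cell of the dcat/dcat males, so effects within spermatids and effects from other testis cells cannot be told apart. Each of the 4 groups (RS wt/wt, RS dcat/dcat, ES wt/wt, ES dcat/dcat) had 3 libraries, and each library held the pooled RNA of 3 mice, so the spread between libraries is a spread between pools. Per the study's methods RS and ES were taken from the same animals, but no source used here states that pools with the same number hold the same mice. Stage values are therefore given without the replicate number as a block, and the numbers of contigs called lower are also given with it. Values of single contigs with the block are given for only some of those whose call it changed. Where the block is not named, the call of a single contig is the one without it, and the block may change it.

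The acrosome forms from Golgi vesicles in round spermatids and spreads over the nucleus while the cell elongates. Its matrix stores enzymes, among them the protease acrosin, together with the proteins that keep acrosin inactive until the contents are released near the egg. Its membranes carry proteins that anchor the acrosome, bind the egg coat (the zona pellucida) or, after exocytosis, take part in fusion with the egg. Genes for acrosome proteins are known to be transcribed from meiosis onwards, and many of their mRNAs are at their highest in round spermatids. CREM, an activator of spermatid genes, binds the cAMP response element TGACGTCA or its shorter form TGACGT.

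The promoters of members that hold the shorter form are shown so that the letters can be set beside 2 genes whose summed counts fell in ES (Acrbp and Spesp1) and 1 that was not called (Izumo1). RefSeq windows from 250 bases before to 50 bases after the start site (build GRCm38.p6) were found for 9 of the 10 genes, all but Acr. TGACGT, read on both strands as TGACGT or ACGTCA, was present in 3 of the 9 genes, which is 3 of their 12 windows, since a gene can have several start sites. It is present in 7.51% of all 32851 promoter windows of the same length. The full palindrome TGACGTCA, which contains the shorter form on both strands, was present in 1 of the 12 windows (Izumo1) and in 1.79% of all windows. Capitals mark the matches, and each sequence is written 5′ to 3′ on the strand of the gene.
Izumo1, chr7:45621561-45621860, plus strand: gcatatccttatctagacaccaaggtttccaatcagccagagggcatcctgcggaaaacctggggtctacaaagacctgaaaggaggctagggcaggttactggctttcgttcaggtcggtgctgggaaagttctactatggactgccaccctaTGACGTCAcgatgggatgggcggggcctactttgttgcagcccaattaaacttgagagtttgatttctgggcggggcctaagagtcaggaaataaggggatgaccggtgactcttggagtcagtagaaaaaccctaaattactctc
Acrbp, chr6:125049677-125049976, plus strand: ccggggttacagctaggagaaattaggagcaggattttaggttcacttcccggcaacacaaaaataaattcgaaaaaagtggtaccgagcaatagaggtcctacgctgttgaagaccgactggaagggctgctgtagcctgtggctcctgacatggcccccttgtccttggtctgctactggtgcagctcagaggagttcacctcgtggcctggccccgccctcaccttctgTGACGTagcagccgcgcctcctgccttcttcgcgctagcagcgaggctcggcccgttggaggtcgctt
Spesp1, chr9:62282130-62282429, minus strand: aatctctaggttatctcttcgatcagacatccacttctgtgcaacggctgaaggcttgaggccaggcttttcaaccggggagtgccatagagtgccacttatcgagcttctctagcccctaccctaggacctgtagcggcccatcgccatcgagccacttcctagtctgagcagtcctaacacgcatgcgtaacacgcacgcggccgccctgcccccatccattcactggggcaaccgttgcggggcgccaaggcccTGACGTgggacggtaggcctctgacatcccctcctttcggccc
In Izumo1 the palindrome holds 2 matches, and the one nearer the RefSeq start site, ACGTCA, began 94 bases before that site. The match began 18 bases before the start site in Acrbp, and in Spesp1 it lay past the start site, inside the transcript. The annotated start of the contig Acrbp-205, at position 125049689, lies inside the Acrbp window and before its match. The 3 genes with a match did not share a stage pattern, as the values below show, and a match is a description of letters and not of binding.

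Several facts of the whole series touch these values. Total counts per library ran from 337287 (ES wt/wt replicate 3) to 1359427. Values per library are CPM, a count relative to the library total, after TMM scaling, which sets libraries to a common level while correcting for a few very abundant RNAs, and a count of 3 corresponded to 1.77 to 10.6 CPM on this scale. The 4 markers of condensing spermatids (Prm1, Prm2, Tnp1 and Tnp2) summed to 17325 to 38742 CPM in RS libraries and to 198774 to 266463 CPM in ES libraries, so the stage labels and these markers went the same way. Of 7 Leydig cell markers 5 had tested contigs, all but Hsd3b1 and Star. They rose in ES in 6 of 6 contigs, from 12.5 to 44.9 CPM summed in RS libraries to 227 to 929 CPM in ES libraries. Insl3 alone had a mean of 443 CPM in ES wt/wt, and the paper describes its transcripts in ES as well as in Leydig cells. Of 8 Sertoli cell markers 5 had tested contigs, all but Rhox5, Sox9 and Wt1. These rose in 7 of 7 contigs, from 9.62 to 51.1 CPM to 281 to 567 CPM, whereas none of 4 macrophage markers had a tested contig. No contig of either somatic list was at 0 in all libraries of a group. Of 8 markers of meiotic spermatocytes, the cells before RS, 6 had tested contigs, and 3 of these 10 contigs (of Sycp2, Sycp3 and Spo11) fell in ES in wt/wt and 1, of Spo11, in dcat/dcat. Their median log2 changes were -0.78 and -0.50, and their summed level was 240 to 341 CPM in RS libraries and 150 to 214 CPM in ES libraries. The part of these cells in the stage differences was not tested. Tent5c rose in ES in both genotypes (log2 change 1.47 ± 0.19 in wt/wt, SE) and did not differ between genotypes past the threshold (0.15 ± 0.18 in RS and 0.20 ± 0.18 in ES). Its level does not check the genotype labels, because the allele is described by its lost enzyme activity and not by an amount of transcript.

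In 5 libraries 2 well counted contigs were both at 0, namely Dkkl1-202 and a contig of clpb. These were replicate 1 of every group and ES wt/wt replicate 3. Dkkl1-202 had 11 to 181 counts in the other 7 libraries, and its zeros therefore followed the library and not the stage or the genotype. Values without these 5 libraries are given beside some of the member results whose call or size changed, but sums by gene were fitted only with all 12 libraries.

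In RS wt/wt the members differed widely in level. The most counted contig of each gene was ranked by CPM per kilobase of transcript and, because each direct RNA read stands for 1 molecule, also by CPM without length. Per kilobase Spink2 came first, with 1818 CPM per kb, followed by Dkkl1 with 877. Acrbp (158), Zpbp2 (142), Acrv1 (141), Spesp1 (124), Spaca1 (121), Acr (110) and Zpbp (79.5) formed a middle range. Izumo1 was last with 16.9 CPM per kb, and it was last in all 4 groups. Spink2 and Dkkl1 came first in all 4 groups as well. Zpbp2 stood at rank 4 in both RS groups and at rank 8 in both ES groups. By CPM without length, Spink2 (1147) and Dkkl1 (1008) also came first in RS wt/wt, but Spesp1 (377) and Zpbp (338) followed, before Acrbp (237), Zpbp2 (206), Acr (166), Acrv1 (156) and Spaca1 (145). Izumo1 was last on both scales (25.2 CPM), and in ES Dkkl1 stood above Spink2 by CPM in both genotypes.

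**Figure D1:**
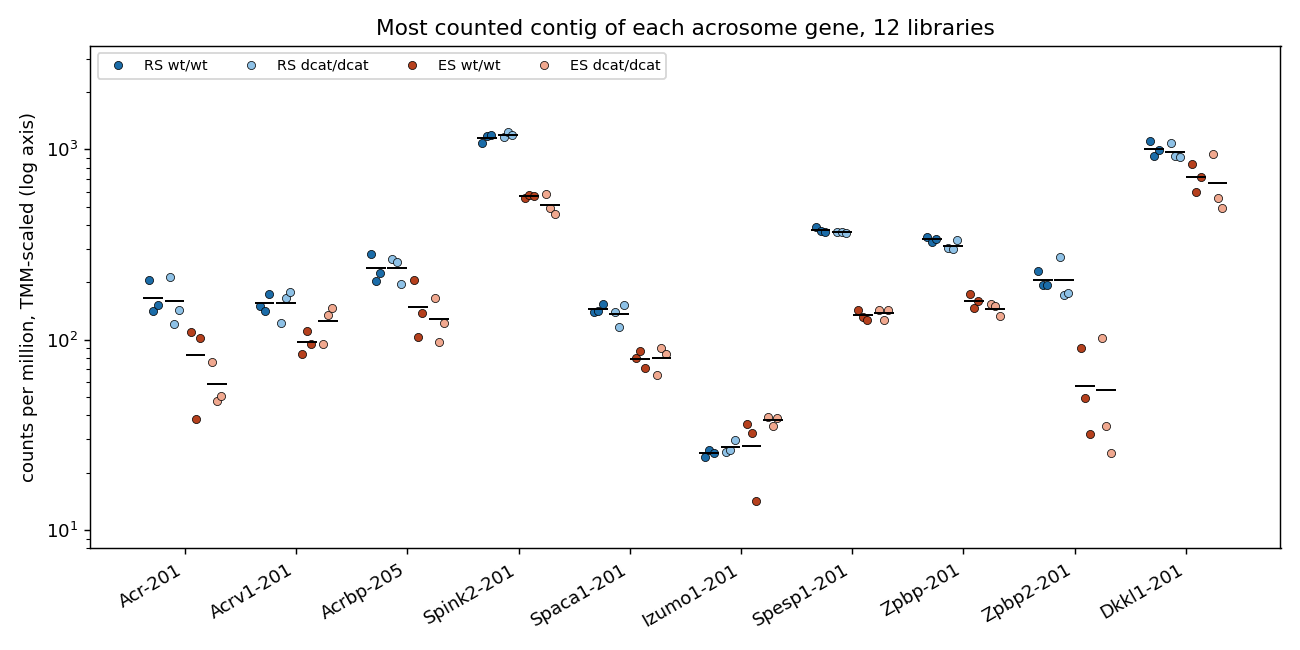
TMM-scaled CPM (log axis) of the most counted contig of each of the 10 genes, where each point is a library, colours are the 4 groups of 3 libraries and black bars are group means. Spesp1-201 and Spink2-201 in ES lie far below RS with no overlap, whereas for Izumo1-201 the ES libraries lie above RS, except 1 at 14.1 CPM.

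The first question was how the acrosome transcripts differ between the stages. In wt/wt, 11 contigs of 8 genes were lower in ES than in RS, and none was higher. Calls are at a Benjamini-Hochberg adjusted p (q) at or under 0.05, over all contigs, in the edgeR quasi-likelihood test. Over all contigs, 16.5% were called lower and 23.8% higher. The median log2 change was -0.96 over the 20 member contigs and -0.24 over all contigs tested. With counts scaled by library totals alone, both medians were lower (-1.68 and -0.96). Then 18 members were called lower, against 45.7% of all contigs. The share of higher among all called contigs went from 59.0% to 26.5%. In 13 of the 20 contigs all 3 ES libraries lay below all 3 RS libraries, against 27.3% of all contigs, and in none did they lie above, against 25.9%. With the replicate number as a block 15 of the 20 were called lower (24.4% of all contigs). Without the 5 libraries with zeros 10 were called, from 2 RS libraries and 1 ES library (13.5% of all contigs, member median -0.77).

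The same comparison in dcat/dcat called 9 contigs of 7 genes lower and none higher, where 16.9% of all contigs were called lower and 24.0% higher. The median was -0.98 over the members and -0.18 over all contigs. Same-numbered libraries deviated together in this comparison (correlations 0.49 to 0.68). With the replicate number as a block 16 of the 20 were called lower (23.9% of all contigs). Replicate 1 of every group is also among the 5 libraries with zeros, and what same-numbered libraries share was not tested. Without the 5 libraries named above the count was 15, from 2 RS and 2 ES libraries. Of all contigs 2093 of 10555 were then called lower, against 2005 of 11831 with all 12 libraries. In 9 contigs all ES libraries lay below all RS libraries and in 1, Izumo1-201, all lay above, against 25.2% and 25.7% of all contigs. Under total counts alone 17 were called lower (42.2% of all contigs), and the share of higher among all called contigs went from 58.7% to 28.2%. In bulk RNA, fewer cells that contain a transcript and less of it per cell cannot be told apart.

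**Figure D2:**
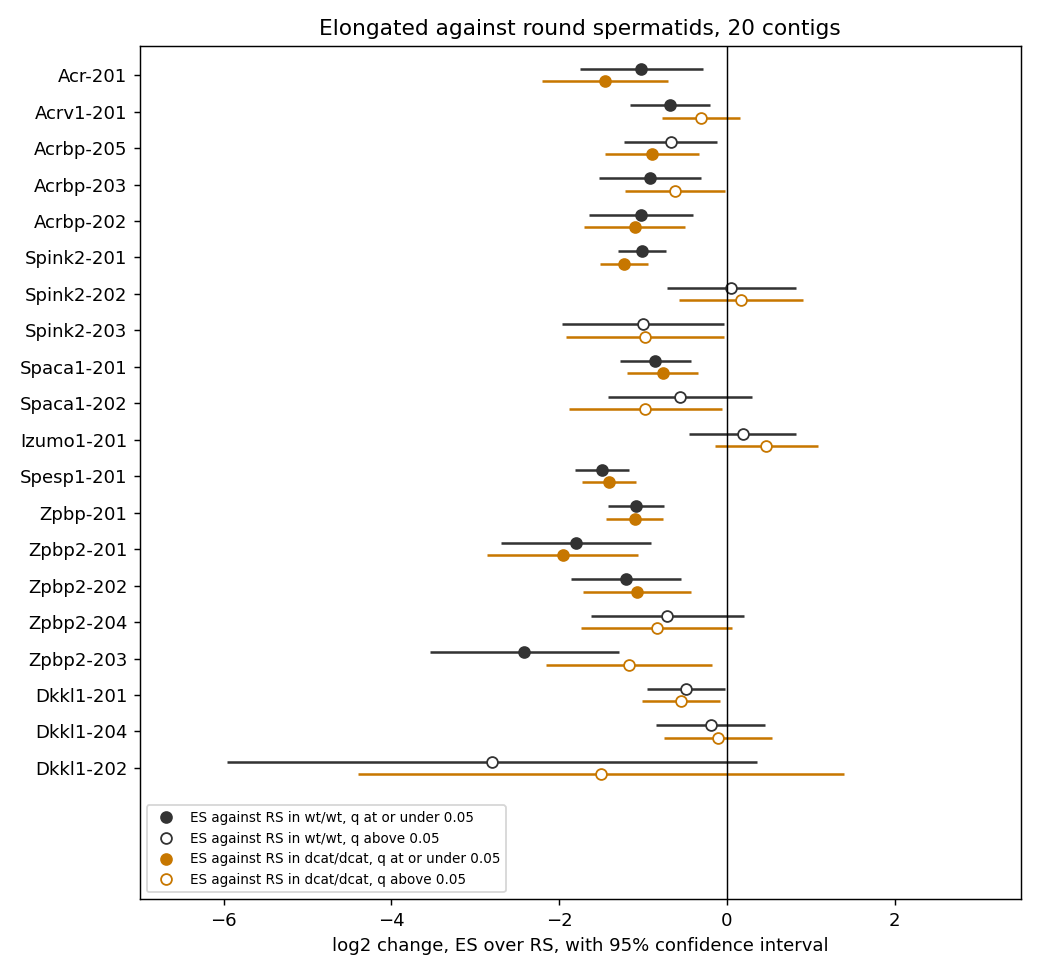
Log2 change of ES over RS for the 20 contigs (x axis), with points for estimates, lines for 95% confidence intervals, black for wt/wt and orange for dcat/dcat, and filled points for q at or under 0.05. All filled points lie left of 0, 11 in wt/wt and 9 in dcat/dcat, and Izumo1-201 and Spink2-202 are the contigs with estimates right of 0.

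Taken as fractions of all counts, the 20 contigs made up 0.576% ± 0.013 of RS wt/wt libraries and 0.565% ± 0.010 of RS dcat/dcat libraries (SD, n = 3). In ES they made up 0.193% ± 0.013 in wt/wt and 0.190% ± 0.013 in dcat/dcat. No ES library reached the lowest RS library. The 10 most abundant contigs took 5.40% to 7.97% of counts in RS libraries and 18.97% to 22.4% in ES libraries, and outside them the members held 0.618% of RS wt/wt counts, against 0.243% in ES of that genotype.

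Acrosin, encoded by Acr on chromosome 15 (89568326 to 89574585, plus strand, 5 exons), is the serine protease of the matrix. Acr-201 stood at 205, 142 and 151 CPM in RS wt/wt replicates 1 to 3 and at 110, 38.0 and 102 CPM in ES wt/wt. In RS dcat/dcat it stood at 213, 121 and 143 CPM, and in ES dcat/dcat at 76.5, 47.4 and 50.7 CPM. The stages did not overlap in either genotype, and the libraries numbered 1 were the highest of their group in all 4 groups. The log2 change was -1.02 ± 0.34 in wt/wt (SE, q = 0.0278) and -1.45 ± 0.35 in dcat/dcat (q = 0.00418, both edgeR). The wt/wt call was lost without ES wt/wt replicate 2 (-0.57, q = 0.197) and without RS wt/wt replicate 1 (-0.85, q = 0.0823). Without the 5 libraries with zeros the wt/wt value was -1.84. The only ES wt/wt library left was then replicate 2, the lowest of its group at 38.0 CPM.

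Acrbp encodes the proacrosin-binding protein, which holds the inactive protease in the matrix. It lies on chromosome 6. Acrbp-205, its most counted contig (5 exons, 948 coding bases), was 282, 204 and 224 CPM in RS wt/wt, against 205, 103 and 138 CPM in the ES libraries. The highest ES library lay just above the lowest RS library, and the change did not pass the threshold (-0.67 ± 0.26, q = 0.0515). It passed without ES wt/wt replicate 1 (-0.92, q = 0.0214), without ES dcat/dcat replicate 1 (-0.66, q = 0.04) and with the replicate number as a block (-0.70, q = 0.00242). Without the 5 libraries with zeros the wt/wt value was -0.96, from ES wt/wt replicate 2 alone in ES, the lowest library of its group. In dcat/dcat Acrbp-205 went from 264, 254 and 197 CPM to 165, 97.4 and 122 CPM, with no overlap, and was called (-0.90 ± 0.26, q = 0.0133). This call was lost without ES dcat/dcat replicate 2 (-0.71, q = 0.0704) or replicate 3 (-0.82, q = 0.0558). The 10-exon contig Acrbp-202, with 1620 coding bases, fell in both genotypes (-1.03, q = 0.0114, and -1.10, q = 0.00626). The 2-exon noncoding contig Acrbp-203 was called in wt/wt (-0.91, q = 0.0191) and had -0.62 (q = 0.0873) in dcat/dcat. With the 3 contigs summed, Acrbp fell in wt/wt (-0.67 ± 0.18, q = 0.00439).

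Spink2 encodes a Kazal-type inhibitor that blocks serine proteases such as acrosin, and in RS its main contig had the highest CPM of the members. Spink2-201 (chromosome 5, 77205107 to 77211471, minus strand, 4 exons) stood at 1081, 1173 and 1187 CPM in RS of wt/wt males and at 558, 576 and 572 CPM in their ES. In dcat/dcat it stood at 1158, 1227 and 1189 CPM in RS and at 580, 489 and 459 CPM in ES. Replicates were close, and every ES library was far below every RS library. The ES mean was 49.6% of the RS mean in wt/wt and 42.8% in dcat/dcat (log2 change -1.01 ± 0.13, q = 4.07e-05, and -1.23 ± 0.14, q = 9.89e-06). Spink2-202 did not follow, with 29.9 to 45.3 CPM in RS wt/wt, against 33.8 to 42.4 CPM in the ES libraries (log2 change 0.05, 95% interval -0.71 to 0.82).

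Acrv1 encodes an acrosomal matrix protein also called SP-10. Acrv1-201 was 150, 142 and 174 CPM in RS wt/wt, against 84.5, 110 and 95.3 CPM in the ES libraries, without overlap (log2 change -0.68 ± 0.22, q = 0.024). In dcat/dcat it went from 123, 165 and 179 CPM to 95.1, 135 and 147 CPM. There the stages overlapped and the change did not pass the threshold (-0.31 ± 0.22, 95% interval -0.77 to 0.16, q = 0.278). The difference between the genotypes in the stage change was itself not past the threshold (interaction 0.38, 95% interval -0.29 to 1.04, unadjusted p = 0.243, edgeR). The wt/wt call was lost without RS wt/wt replicate 3 (q = 0.064), ES wt/wt replicate 1 (q = 0.149) or ES wt/wt replicate 3 (q = 0.0682). Without the 5 libraries with zeros, where 1 ES wt/wt library remained, the wt/wt value was -0.43.

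Among the membrane proteins, Spaca1 is needed for the acrosome to take its shape on the nucleus. Spaca1-201 (chromosome 4) had 140, 142 and 153 CPM in RS wt/wt, against 80.3, 87.5 and 70.6 CPM in the ES libraries. It had 139, 117 and 152 CPM in RS dcat/dcat and 64.9, 89.9 and 84.4 CPM in ES dcat/dcat. The stages were apart in both genotypes (log2 change -0.85 ± 0.20, q = 0.00337, and -0.77 ± 0.20, q = 0.00637). Without the 5 libraries with zeros the wt/wt value was -0.65 (q = 0.0655), with 2 RS libraries and 1 ES library left. The second contig, Spaca1-202, had 4 to 68 counts per library and was called in neither genotype.

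Spesp1 encodes a protein of the equatorial segment, the acrosome region that stays on the sperm after exocytosis. Spesp1-201 (chromosome 9, 62270729 to 62282208, minus strand, 2 exons) was 390, 374 and 368 CPM in RS wt/wt, against 144, 131 and 127 CPM in the ES libraries. In dcat/dcat it was 369, 370 and 365 CPM in RS and 144, 127 and 144 CPM in ES. The 6 RS libraries and the 6 ES libraries were thus each close together and well apart. The TMM-scaled ES mean was 35.5% of the RS mean in wt/wt and 37.6% in dcat/dcat. The log2 changes were -1.49 ± 0.15 (q = 4.14e-06) and -1.41 ± 0.15 (q = 8.14e-06). In wt/wt 5.62% of all contigs had a lower log2 change than this one.

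Izumo1 encodes the sperm ligand of the egg receptor JUNO and is needed for gamete fusion. Izumo1-201 (chromosome 7, 45621811 to 45627242, plus strand, 10 exons) had 24.1, 26.2 and 25.4 CPM in RS wt/wt, against 35.9, 32.3 and 14.1 CPM in the ES libraries. It had 25.6, 26.2 and 29.7 CPM in RS dcat/dcat and 39.4, 35.0 and 38.8 CPM in ES dcat/dcat. Of the 6 ES libraries, 5 lay above every RS library. The one below them, ES wt/wt replicate 3, was the shallowest and held 4 counts of this contig. The log2 change was 0.19 (95% interval -0.45 to 0.83, q = 0.638) in wt/wt and 0.47 (95% interval -0.15 to 1.08, q = 0.206) in dcat/dcat. Both signs turned under total counts alone (-0.54 and -0.20, q = 0.113 and 0.542). Izumo1 was thus not called in either direction, and its intervals left out the fall seen for Spesp1.

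Zpbp and Zpbp2 encode related matrix proteins that bind the zona pellucida. Zpbp-201 (chromosome 11, 11279626 to 11462408, minus strand, 8 exons) was 347, 325 and 340 CPM in RS wt/wt, against 173, 146 and 159 CPM in the ES libraries. It was 301, 300 and 333 CPM in RS dcat/dcat and 153, 150 and 133 CPM in ES dcat/dcat. No ES library came near an RS library, and the changes were -1.08 ± 0.16 (q = 8.31e-05) and -1.10 ± 0.16 (q = 7.59e-05).

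Zpbp2, on the same chromosome at 98551097 to 98558665, had 4 contigs and fell further. Zpbp2-201 was 230, 194 and 194 CPM in RS wt/wt, against 90.9, 49.5 and 31.8 CPM in the ES libraries. In dcat/dcat it was 272, 172 and 176 CPM in RS and 102, 35.0 and 25.3 CPM in ES. The stages were apart, but replicate 1 was the highest library in each of the 4 groups. Changes were -1.80 ± 0.42 (q = 0.00333) and -1.96 ± 0.42 (q = 0.00192). Zpbp2-202 fell in both genotypes (-1.21 and -1.08), Zpbp2-203 in wt/wt (-2.42 ± 0.53, q = 0.00212, on 1 to 6 counts in each ES library), and Zpbp2-204 in neither (-0.71 and -0.84, q = 0.196 and 0.127). Summed over its contigs, the TMM-scaled ES mean of Zpbp2 was 39.1% of the RS mean in wt/wt and 41.3% in dcat/dcat. These are ratios of scaled relative counts and not of amounts per cell.

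Dkkl1 encodes a secreted relative of the Dickkopf proteins that lies in the acrosome. Dkkl1-201 (chromosome 7, 45207519 to 45212123, minus strand, 5 exons) was 1106, 926 and 993 CPM in RS wt/wt, against 841, 595 and 717 CPM in the ES libraries. In dcat/dcat it was 1079, 927 and 916 CPM in RS and 951, 557 and 495 CPM in ES, where replicate 1 reached the RS range. Its values of -0.49 ± 0.22 (q = 0.084) and -0.55 ± 0.22 (q = 0.0559) did not pass the threshold. With the replicate number as a block both were called (-0.51, q = 0.00819, and -0.59, q = 0.00267). They passed without ES dcat/dcat replicate 1, at -0.48 (q = 0.0218) and -0.88 (q = 0.00139), and in dcat/dcat without RS wt/wt replicate 1 (-0.56, q = 0.0493). Without all 5 libraries with zeros the wt/wt value was -0.58, from ES wt/wt replicate 2 alone in ES, the lowest library of its group. The dcat/dcat value was then -0.77 (q = 6.67e-05). Dkkl1-204 had -0.20 (95% interval -0.85 to 0.45) in wt/wt and -0.11 (95% interval -0.75 to 0.54) in dcat/dcat.

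Counts of a gene's contigs were also summed before the fit, since reads from transcripts that share most of their sequence may be split between contigs. Then 9 of the 10 genes were called lower in ES in wt/wt (22.9% of 7706 genes and single contigs tested) and 8 in dcat/dcat (22.8%). None was called higher, against 26.1% and 26.4%. Dkkl1 was called in both genotypes on this sum (-0.41 ± 0.16, q = 0.0351, and -0.40 ± 0.16, q = 0.0412). Izumo1 was the gene not called in wt/wt, and Izumo1 (0.58, 95% interval 0.01 to 1.15, q = 0.0879) and Acrv1 (-0.19, q = 0.474) were those not called in dcat/dcat.

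For the 5 genes with several contigs, the share of the gene's counts on its most counted contig was compared between stages. An exact two-sided permutation test of the stage labels within genotypes was used (400 arrangements, smallest p 0.005), adjusted over the 5 genes. Intervals of a share are 95% Wilson intervals and, like the floors above, cover counting error only. Spink2-201 held 94.8% (93.5 to 95.9), 94.3% (92.8 to 95.6) and 95.3% (94.3 to 96.1) of Spink2 counts in RS wt/wt. In ES wt/wt it held 93.0% (89.4 to 95.4), 91.5% (88.05 to 94.1) and 90.5% (85.3 to 94.0). The shares were 96.1%, 94.8% and 93.0% in RS dcat/dcat and 93.3%, 85.6% and 88.6% in ES dcat/dcat. The ES share was below the same-numbered RS share in 6 of 6 pairs, and on average 4.31 percentage points lower (p = 0.01, adjusted p = 0.05, exact permutation). This stands at the threshold, and leaving out any RS library or ES dcat/dcat replicate 2 gave an adjusted p of 0.075 to 0.15 (exact permutation). A sign-flip test over the 6 same-numbered pairs gave an adjusted p of 0.156. With all 6 pairs lower its unadjusted p was already the smallest possible, so Spink2 alone could not pass that test. Without the 5 libraries with zeros the difference was -5.03 points, also with the smallest p that these libraries allow (p = 0.0556, adjusted p = 0.139, exact permutation). Spink2-202 took 2.62% to 4.12% of Spink2 counts in RS libraries and 4.10% to 13.5% in ES libraries.

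The Zpbp2-201 share varied widely between replicates of a group. In RS wt/wt it was 53.4% (49.1 to 57.6), 45.0% (39.98 to 50.2) and 45.7% (42.1 to 49.4), and in RS dcat/dcat 60.6%, 42.4% and 40.8%. In ES wt/wt it was 58.1% (46.7 to 68.7), 26.5% (18.8 to 36.0) and 25.7% (14.2 to 42.1), and in ES dcat/dcat 66.7% (54.7 to 76.8), 20.9% (12.9 to 32.1) and 14.9% (9.21 to 23.1). Without the 5 libraries with zeros the stages did not overlap, at 40.8% to 45.7% in 4 RS libraries and 14.9% to 26.5% in 3 ES libraries. The difference was then -21.3 points (p = 0.0556, adjusted p = 0.139, exact permutation), where 0.0556 is the smallest p that the 18 arrangements can give. In replicates 2 and 3 the ES share was below the RS share, and in replicate 1 it was above it in both genotypes. Over all libraries the difference was -12.5 percentage points (p = 0.215, adjusted p = 0.54, exact permutation). Acrbp, Dkkl1 and Spaca1 shares differed by 0.75, -1.51 and -0.61 points (adjusted p = 0.86 for each, exact permutation), and without the 5 libraries by -2.33, -3.50 and 2.30 points (adjusted p = 0.722, 0.278 and 0.722). Between genotypes no share passed the test (smallest adjusted p 0.83, exact permutation).

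**Figure D3:**
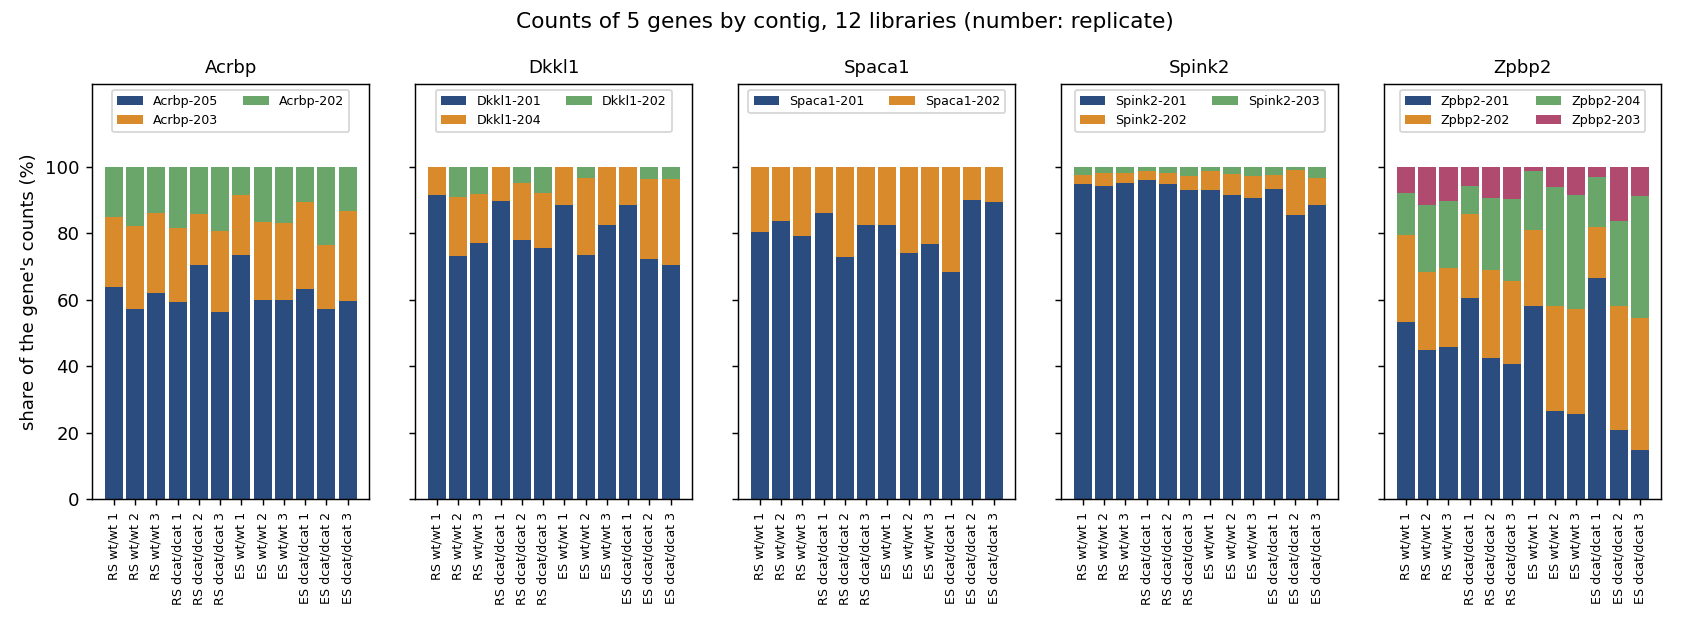
Share of a gene's counts (%) on each of its contigs, in stacked bars for the 12 libraries, with the replicate number after the group name. The Zpbp2-201 share is 58.1% and 66.7% in the ES libraries of replicate 1 and 14.9% to 26.5% in the other ES libraries, and the Dkkl1-202 segment is missing in 5 libraries.

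Other genes of acrosome function were read from the same fit, in lists that hold none of the members, with medians beside -0.24 (wt/wt) and -0.18 (dcat/dcat) for all contigs. In the list of matrix and zona-binding proteins, 10 of 36 contigs were higher and 3 lower in ES in wt/wt, with 9 and 4 in the mutant (medians -0.17 and 0.23). Over all contigs, 23.8% were called higher and 16.5% lower in wt/wt, with 24.0% and 16.9% in the mutant. Capza3 was placed in this list, although it encodes a capping protein subunit of the sperm head skeleton and not a matrix protein. It rose from 198 ± 55 to 913 ± 129 CPM in wt/wt (SD, n = 3, log2 change 2.205 ± 0.197, q = 1.87e-06). Spaca9 rose as well, from 225 ± 61 to 1116 ± 183 CPM (2.31 ± 0.23, q = 3.06e-06). Prss21, a serine protease, fell from 164 ± 5 to 78.8 ± 17.8 CPM (-1.05 ± 0.23, q = 0.00248). Spam1 encodes a hyaluronidase of the sperm surface. Its most counted contig fell from 27.7 ± 2.9 to 9.66 ± 3.58 CPM in wt/wt (-1.53 ± 0.37, q = 0.00461), on 3 to 6 counts in each ES library. In dcat/dcat the mean of this contig was 23.2 CPM in RS, against 16.7 CPM in the ES libraries, and it was not called (-0.46, q = 0.293). The other Spam1 contigs were not called in wt/wt (-0.68, q = 0.228, and -0.37, q = 0.71).

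In the list of gamete fusion proteins, 6 of 15 contigs were higher and 1 was lower, in each genotype (medians 0.60 and 0.65). Llcfc1, needed for fusion, rose from 299 ± 38 to 743 ± 84 CPM in wt/wt (1.32 ± 0.16, q = 2e-05). Izumo2, a relative of Izumo1, rose from 109 ± 19 to 367 ± 101.4 CPM (1.76 ± 0.25, q = 7.28e-05), whereas Izumo4 fell from 280 ± 19 to 110 ± 36 CPM (-1.37 ± 0.25, q = 0.000504). Members of the Izumo family thus went in different directions, and Izumo1 itself was not called. With total counts alone the calls over the 4 lists went from 27 to 46 of 85 contigs in wt/wt. Over all 11831 contigs, lower calls then went from 1953 to 5411 and higher calls from 2813 to 1953.

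In the list of acrosome formation factors, 5 of 26 contigs were higher and 2 lower in wt/wt, with 7 and 2 in the mutant (medians 0.08 and -0.07). Of all contigs, 23.8% and 16.5% were so called in wt/wt, and 24.0% and 16.9% in the mutant. Tbc1d20, a Rab GTPase-activating protein, rose from 97.7 ± 18.6 to 549 ± 240 CPM (2.48 ± 0.36, q = 8.27e-05), and Ccdc136 from 335 ± 34 to 518 ± 80 CPM (0.62 ± 0.17, q = 0.00842). Spata16, a Golgi protein that moves to the acrosome, fell from 263 ± 3 to 127 ± 19 CPM (-1.05 ± 0.17, q = 0.000261). Dpy19l2, which attaches the acrosome to the nuclear envelope, fell from 195 ± 6 to 105 ± 9 CPM (-0.89 ± 0.18, q = 0.00138). No contig of the exocytosis list was called in either direction in either genotype (0 of 8 contigs of 5 genes, medians -0.40 and -0.24). In this list 1 contig in wt/wt had an unadjusted p under 0.05, as had 2 in the mutant, DESeq2 called 0, and the replicate block called 1 and 2.

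The second question was whether loss of TENT5C activity changes the acrosome transcripts. None of the 20 contigs was called between dcat/dcat and wt/wt in RS or in ES (edgeR), and 0 of 11831 contigs were called at all (0% in each stage). The wt/wt and dcat/dcat libraries are those of the stage comparisons. No member had an unadjusted p under 0.05, where 98 of all contigs did in RS (0.828%) and 356 in ES (3.01%), and DESeq2 called 0 members as well (0 of all contigs in RS and 1 in ES). With the replicate number as a block, which treats same-numbered RS libraries as pairs, 3 of all contigs (0.0254%) and 0 members were called in RS.

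In RS the genotype differences of the members were small. Their median was 0.00 and they ran from -0.53 (Dkkl1-202) to 0.20, with the smallest unadjusted p at 0.448 (edgeR). For 18 of the 20 contigs the 95% interval lay within a change of 1 on the log2 scale. Spesp1-201 was 377 ± 11 CPM in RS wt/wt and 368 ± 2 CPM in RS dcat/dcat (log2 change -0.04, 95% interval -0.34 to 0.27). Spink2-201 was 1147 ± 58 and 1192 ± 35 CPM (0.05, 95% interval -0.23 to 0.34). Summed by gene, all 10 intervals lay within 1.

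In ES the intervals were wider, at lower counts, and 11 of the 20 lay within 1. The differences had a median of 0.05 and ran from -0.50 (Acr-201) to 0.98 (Zpbp2-203). For Zpbp2-203 the 95% interval was -0.37 to 2.32, on 1 to 6 counts in each ES wt/wt library. Acr-201 was 83.4 ± 39.5 CPM in ES wt/wt, against 58.2 ± 15.9 CPM in the mutant (-0.50, 95% interval -1.30 to 0.31, unadjusted p = 0.208, edgeR). Its sign turned without the 5 libraries with zeros (0.31), where 1 ES wt/wt library remained. Acrv1-201 was 96.7 ± 12.96 and 126 ± 27 CPM (0.38, 95% interval -0.12 to 0.87, unadjusted p = 0.124, edgeR). Izumo1-201 was 27.5 ± 11.7 and 37.7 ± 2.4 CPM (0.39, 95% interval -0.27 to 1.06), with the low ES wt/wt replicate 3 in the first mean. Groups overlapped in all 20 contigs in both stages, and groups without overlap were found in 5.31% of all contigs in RS and 7.66% in ES.

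The change between stages was compared between genotypes by the interaction term. No member and no other contig was called (0 of 11831, with 170, or 1.44%, at an unadjusted p under 0.05). Among the most counted contigs of the 10 genes the largest interaction was that of Acr-201 (-0.43, 95% interval -1.48 to 0.62). The narrowest intervals among them were those of Spink2-201 (-0.21, 95% interval -0.62 to 0.19) and Spesp1-201 (0.08, 95% interval -0.37 to 0.53).

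**Figure D4:**
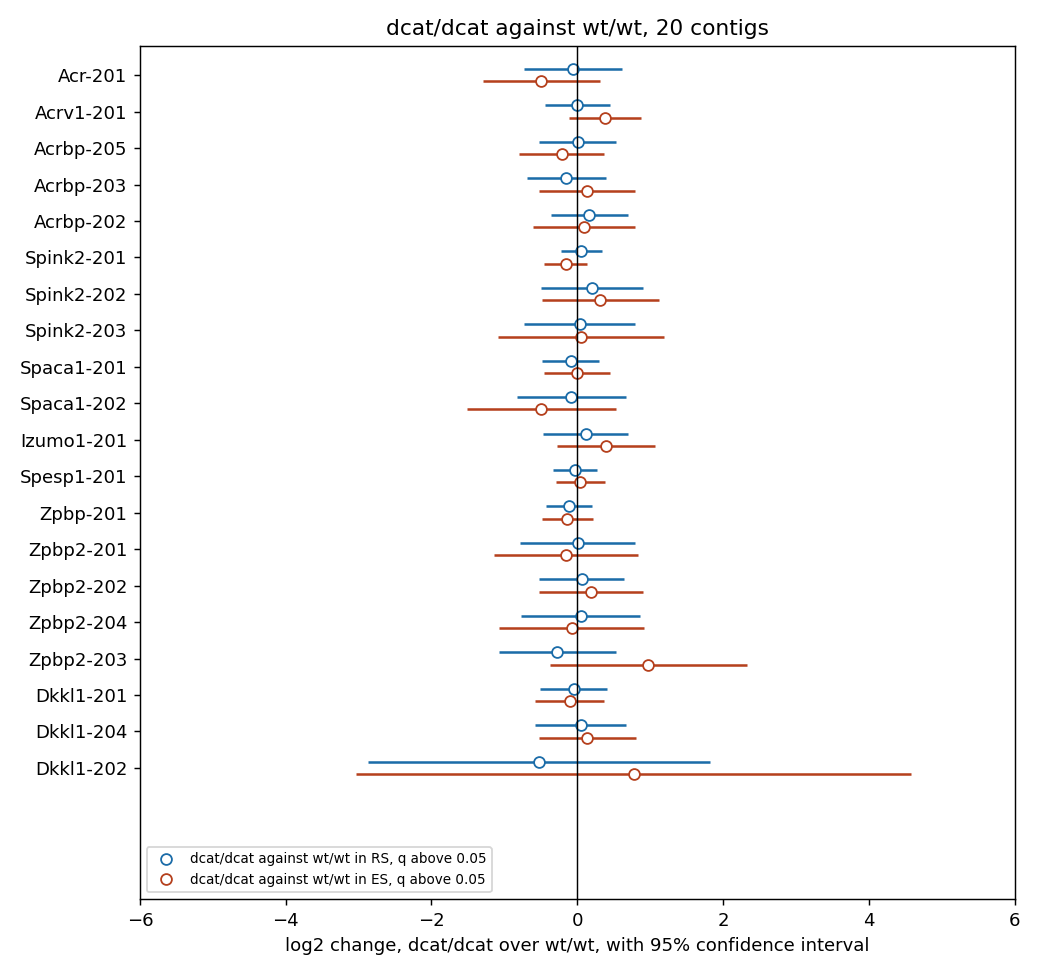
Log2 change of dcat/dcat over wt/wt for the 20 contigs (x axis) with 95% confidence intervals, blue for RS and red for ES, all points open because none had q at or under 0.05. Estimates lie around 0, and Dkkl1-202, at 0 counts in 5 libraries, has the widest intervals.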

How the data were processed

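Nanopore direct RNA reads were basecalled with Guppy by the authors and aligned with minimap2 to GENCODE vM17 transcripts (GRCm38). Reads were kept whose tails passed Nanopolish. The submitters' processing notes name minimap2 2.20-r1061, and the study's methods name a later version. The deposited table holds whole-number counts of reads per contig, without normalization. Oligo(dT) selection and the tail filter affect counts and cannot be undone. The authors' deposited log2 fold changes and adjusted p-values were not used, only the symbols beside them. Positions came from GENCODE vM21 on the same build.

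Counts were tested with edgeR 4.0.16 (R 4.3.3) by quasi-likelihood, with TMM scaling, 10 counts in at least 2 libraries of a group, and 1 mean per group over 12 libraries. The test was checked on simulated counts. No libraries were identical (0 pairs). Same-numbered libraries deviated together (correlation above 0.1 for all 3 numbers) for ES against RS in dcat/dcat (0.49 to 0.68) and for genotypes in RS (0.63 to 0.86). The study's methods say that RS and ES came from the same mice, but not which pools share them, so the correlations alone were used. The genes, lists and tests were chosen with earlier results of these data known. All members were named, with the most counted contig in full. From each list came up to 2 genes called higher and 2 lower in wt/wt with the smallest q. Alternatives were DESeq2 1.42.0, other scalings and filters, gene sums, a replicate block and each library left out. A block for the 5 libraries with zeros, and their omission, were added after the data were seen.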

Additional observations from a re-analysis of the deposited data

How the results depend on the processing

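Under all alternatives run, no member contig was called higher in ES, and none was called between genotypes. Contigs called for ES against RS in wt/wt numbered 4766, with 7364 under total counts alone and 2588 of 3719 when at least 10 counts were asked in every library. In dcat/dcat 4849 became 2562 under that filter. Members called lower in wt/wt numbered 11, with 18 under total counts, where 1953 and 5411 of all 11831 contigs were called lower. In dcat/dcat they numbered 9, with 17 under total counts, 16 with the replicate block and 16 with the library set as a block. Of all 11831 contigs 2005, 4995, 2830 and 2814 were called lower in these 4 fits. Without the 5 libraries of that set 15 members were called lower in dcat/dcat, and 2093 of all 10555 contigs. In wt/wt, where same-numbered libraries did not all deviate together (correlations 0.55, 0.62 and -0.29), the replicate block called 15 members, and 10 were called without the set. Genotype calls in RS went from 0 to 3 with the replicate block, 4 with the library set as a block and 2 without that set. In ES they went from 0 to 1 with DESeq2, with the replicate block and with the library set as a block. The replicate block moved no other count given here by over 1.5 times, except the matrix and zona-binding list in wt/wt (13 to 20) and the exocytosis list (0 to 1 in wt/wt and 0 to 2 in dcat/dcat). The contig share test went from 1 gene to 0 under the paired sign flips, where 1 gene alone could not pass. Without the 5 libraries it called 0, and the Acrbp and Spaca1 shares, not called, changed sign. Leaving out 1 library at a time gave 3332 to 4874 calls in wt/wt and 3594 to 4975 in dcat/dcat, 8 to 13 members in each genotype, 0 to 0 genotype and interaction calls, and 0 to 1 genes in the share test. The 27 contigs called over the 4 acrosome lists in wt/wt became 46 under total counts, where all calls went from 4766 to 7364. They became 41 with the library set as a block, which called 2880 of all contigs lower and 3270 higher. The ES minus RS share of libraries on the members was -0.383 percentage points in wt/wt and -0.376 in dcat/dcat, and -0.375 and -0.370 outside the 10 most abundant contigs. Over the most counted contigs, an uncalled estimate changed sign in 34 refits between genotypes in RS, 16 in ES and 24 of the interaction, and Izumo1 between stages did so in both genotypes under total counts. No called estimate changed sign under the alternatives run. The cause of these changes was not tested. Depth limits Izumo1-201, Spaca1-202, Spink2-203, Dkkl1-202 and the 4 Zpbp2 contigs, with 10 or fewer counts in some ES library.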
